A study of Mus musculus with 4 samples.

Results

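Genes of the pancreatic acinar cell were followed through 4 RNA-seq libraries of sorted mouse β-cells. The set was chosen by name, as digestive enzymes, other secreted acinar proteins and acinar transcription factors whose 4 counts sum to 15 or more, and 35 of 39 listed genes met that minimum, out of 23420 genes in the count table. Amy2a5, Prss1, Prss3 and Try10, with 0, 10, 1 and 11 counts in all, did not. Of the 35, 20 encode secreted enzymes or the lipase cofactor colipase, 4 regenerating proteins, 8 granule and mucosal proteins and 3 transcription factors.

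All 4 libraries were made from mice carrying DTA, the diphtheria toxin A chain, in which β-cells were ablated by 10 days of doxycycline and the remaining β-cells were collected by flow sorting. The animals are labelled Bmal1KO/DTA for 2 libraries and Bmal1+/-DTA for the other 2, so a labelled knockout is set against a labelled heterozygote, all after ablation. Bmal1, whose gene symbol is Arntl, is a transcription factor of the circadian clock. No group here was left without ablation. The sources used here do not give the promoters that drive DTA and the deletion, the age and sex of the mice or the sorting gate. Whether the libraries of a label came from separate animals is not said either, so the p-values measure a spread between libraries that may be technical. Totals ran from 31056116 to 38020488 counts per library, which makes 3 counts equal to 0.0775 to 0.0937 CPM, a measure of counts relative to the library total, scaled here by TMM. Reads carry no molecular identifiers, so the intervals given cover counting error only.

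Acinar cells make up most of the exocrine pancreas. They store digestive enzymes in zymogen granules, mostly as inactive precursors, and release them into ducts that lead to the gut, where trypsin activates the others. Their enzyme genes are driven by the PTF1 complex, in which PTF1A binds DNA with an E-protein and RBPJL, the acinar form of RBPJ, while MIST1, the product of Bhlha15, controls the size of the secretory apparatus rather than the choice of enzymes. In the living pancreas islets are embedded in acinar tissue. In bulk samples such as these, fewer acinar cells and less acinar RNA per cell cannot be told apart.

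PTF1 contacts a bipartite element made of an E-box and a TC-box. Promoters from the RefSeq table (GRCm38.p6) were found for 29 of the 35 genes, 30 promoters in all, and the 250 bases before each start were searched on both strands for CACCTG and for TTTCCC, the letters used here for these parts; no copy of one overlapped a copy of the other. CACCTG was present in 17 of 30 promoters (56.7%) against 17.2% of the 32851 promoters in the table, TTTCCC in 8 (26.7%) against 21.9%, and both in 5 (16.7%) against 3.61%. A match is a description of letters and does not show binding. The promoters of 4 genes are given because their RNA differed in pattern, as described further on: Prss2 and Cela1 are enzymes that hold both parts, and Rbpjl and Bhlha15 are transcription factors that hold CACCTG alone. Capitals mark the letters of either part on either strand, so CAGGTG and GGGAAA are the same parts on the other strand. Each sequence runs 5′ to 3′ on the gene's strand and ends at the last base before the start.
Prss2 (chr6:41521526-41521775, plus strand): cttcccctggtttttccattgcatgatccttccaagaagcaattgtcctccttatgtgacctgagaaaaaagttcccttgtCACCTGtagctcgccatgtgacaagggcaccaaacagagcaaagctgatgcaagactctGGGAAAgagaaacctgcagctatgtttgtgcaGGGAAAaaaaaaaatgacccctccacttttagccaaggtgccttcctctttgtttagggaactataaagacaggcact
Cela1 (chr15:100687921-100688170, minus strand): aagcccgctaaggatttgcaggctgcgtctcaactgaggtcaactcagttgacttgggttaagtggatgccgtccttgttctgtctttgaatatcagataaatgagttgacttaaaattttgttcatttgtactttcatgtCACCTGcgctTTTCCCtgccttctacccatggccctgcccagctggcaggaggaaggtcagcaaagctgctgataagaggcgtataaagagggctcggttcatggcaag
Rbpjl (chr2:164402944-164403193, plus strand): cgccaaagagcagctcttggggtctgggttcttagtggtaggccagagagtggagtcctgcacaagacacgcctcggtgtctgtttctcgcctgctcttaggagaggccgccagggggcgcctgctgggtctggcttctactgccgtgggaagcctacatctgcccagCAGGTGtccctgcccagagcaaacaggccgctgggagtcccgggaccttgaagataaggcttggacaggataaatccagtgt
Bhlha15 (chr5:144190036-144190285, plus strand): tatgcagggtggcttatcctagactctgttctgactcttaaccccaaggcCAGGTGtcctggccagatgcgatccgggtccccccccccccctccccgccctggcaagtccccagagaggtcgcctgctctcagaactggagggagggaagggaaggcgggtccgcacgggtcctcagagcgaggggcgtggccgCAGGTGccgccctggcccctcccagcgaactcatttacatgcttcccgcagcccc
In the Cela1 promoter CACCTG begins at position 142 and TTTCCC at position 152, counted from 1 at the 5′ end, on the same strand. Both parts begin within 20 bases of each other in 2 promoters of the set, those of Cela1 and Reg3d, and in 0.572% of all promoters. In Prss2, CACCTG begins at position 82 and the copies of TTTCCC on the other strand at 141 and 173.

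The libraries were first checked against their labels. RNA of Arntl was higher under the KO label, with 2490 and 2101 counts against 892 and 495 (edgeR quasi-likelihood test, adjusted p = 0.0175); whole-gene counts do not show whether a deleted part is missing, so the groups are called by their labels. Where pairs of values are joined by "against", the first pair is from KO replicates 1 and 2 and the second from heterozygous replicates 1 and 2, and strings of 4 values keep this order. The 10 β-cell marker genes took 22.2% to 27.4% of each library's counts, mostly through insulin, and none was at 0. Of them 3 were lower under the KO label, against 1.34% of all genes tested. They went opposite in direction to most acinar genes: Ucn3 (log2 fold change -2.04, edgeR adjusted p = 0.0160), G6pc2 (-0.96, adjusted p = 0.0175) and Slc30a8 (-0.92, adjusted p = 0.0230). Libraries of 1 label differed from each other by far more than sampling noise (chi-square per degree of freedom 67.02 between the KO replicates and 44.4 between the heterozygous replicates). RNA of 4 Y-linked genes summed to 283 and 72.7 CPM in KO replicates 1 and 2 and to 77.1 and 39.2 CPM in heterozygous replicates 1 and 2. Xist was at 8.68, 38.8, 72.3 and 67.5 CPM, so KO replicate 1 stood apart. Both Xist and Y-linked RNA were thus found in every library, in proportions that differed between the KO replicates. Heterozygous replicate 2 stood apart in the acinar genes themselves, and values are given with and without it.

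Acinar enzyme RNA was found in all 4 sorted libraries, at 0 to 244 counts per enzyme in heterozygous replicate 2, the lowest library. The 20 secreted enzymes summed to 301 and 124 CPM under the KO label against 78.1 and 15.01 CPM under the heterozygous label, or 9879 and 3966 against 3024 and 496 counts, between 0.00143% and 0.0301% of a library. KO replicate 1 was thus the highest, heterozygous replicate 2 the lowest, and the labels did not overlap. The libraries of a label were far apart: KO replicate 1 held 2.43 times as much as KO replicate 2, and heterozygous replicate 1 held 5.201 times as much as heterozygous replicate 2, while KO replicate 2 and heterozygous replicate 1, which carry different labels, differed by 1.59 times. The means were 212 ± 125 CPM and 46.5 ± 44.6 CPM (SD, n = 2 each), a ratio of 4.56. By an exact permutation test over the libraries (2-sided) p was 0.333, the smallest that 2 against 2 allows. Without heterozygous replicate 2 the ratio was 2.72, without KO replicate 1 it was 2.66, and without heterozygous replicate 1 it was 14.1.

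**Figure D1:**
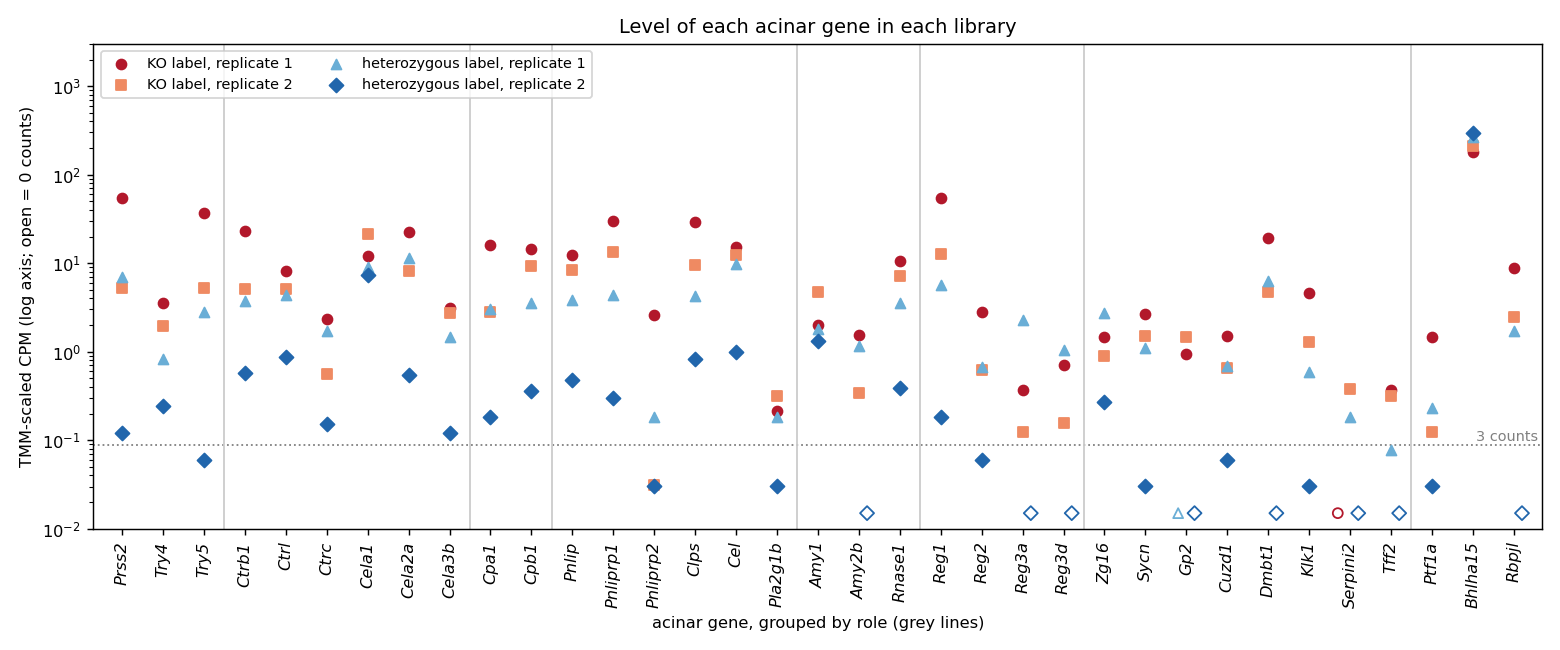
TMM-scaled CPM (log axis) of each of the 35 acinar genes, grouped by role, with 1 symbol per library, open symbols at the bottom for 0 counts and a dotted line at 3 counts. Heterozygous replicate 2 (dark blue) lies below the other libraries for most genes, with 8 genes at 0, while Cela1 and Amy1 lie close together in all 4 libraries and Bhlha15 has the reverse order.

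The genes shared the highest and the lowest library more than the whole order. KO replicate 1 was the highest library for 26 of the 35, KO replicate 2 for 5, heterozygous replicate 1 for 3 and heterozygous replicate 2 for 1, Bhlha15. Among the 31 that were tested, KO replicate 1 was highest for 24, against 4377 of all 14649 genes tested. From highest to lowest the order KO replicate 1, KO replicate 2, heterozygous replicate 1, heterozygous replicate 2 was seen in 16 genes, all of them among the 31 with counts high enough to be tested, and in 7.87% of the 14649 genes tested. A further 10 genes had KO replicate 2 and heterozygous replicate 1 exchanged. In heterozygous replicate 2, 8 genes had 0 counts and 23 had fewer than 10. The median enzyme stood there at 3.28% of its level in its highest library. Of the 31 tested genes, 29 were lowest in heterozygous replicate 2, against 25.0% of all tested genes, and 25 were at least 4 times as high in heterozygous replicate 1 as in replicate 2, with 3 counts as the floor, against 2.14%. The separation of these 2 libraries of the same label therefore ran through nearly all of the set.

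No acinar gene passed the test between the labels. With p-values adjusted over all 14649 genes (edgeR quasi-likelihood test, Benjamini-Hochberg), 0 of 31 tested members were under 0.05, against 2.54% of all genes tested, 1.20% higher and 1.34% lower under the KO label. Unadjusted, 13 were under 0.05, against 16.9% of all genes. DESeq2 called 5 members (Clps, Cpb1, Ctrb1 and Gp2 higher and Bhlha15 lower under the KO label) and 8.05% of all genes. By limma-voom 1 member (Gp2) and 2.61% of all genes passed, and by limma-trend 0 members and 3.39%. The fitted differences still leaned 1 way: 27 of 31 were above 0, against 52.4% of all genes, with a median log2 fold change of 2.16, against 0.024 over all genes, and both KO replicates exceeded both heterozygous replicates for 19, against 25.3%. The genes varied together across the same 4 libraries, so they are not independent replicates and these counts do not test the labels. Gp2 (31 and 47 counts against 0 and 0) and Tff2 (12 and 10 against 3 and 0) are among both the 27 and the 19. Both were high enough to be tested only through the KO libraries. Ptf1a, Pnliprp2, Pla2g1b and Serpini2 were too low for the test. Without heterozygous replicate 2 the median was 1.31 and 0 passed, against 0.162% of all genes. Without heterozygous replicate 1, which leaves only the library with the least acinar RNA on that side, the median was 4.76 and 11 passed, against 1.45% of all genes, among them Try5, Pnliprp1, Reg1, Dmbt1 and Rbpjl; the lone library is then assumed to vary as the others do. Without KO replicate 1 the member that passed was Cela1 (3.69% of all genes) and without KO replicate 2 it was Clps (5.43%), with medians of 1.35 and 2.58.

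**Figure D2:**
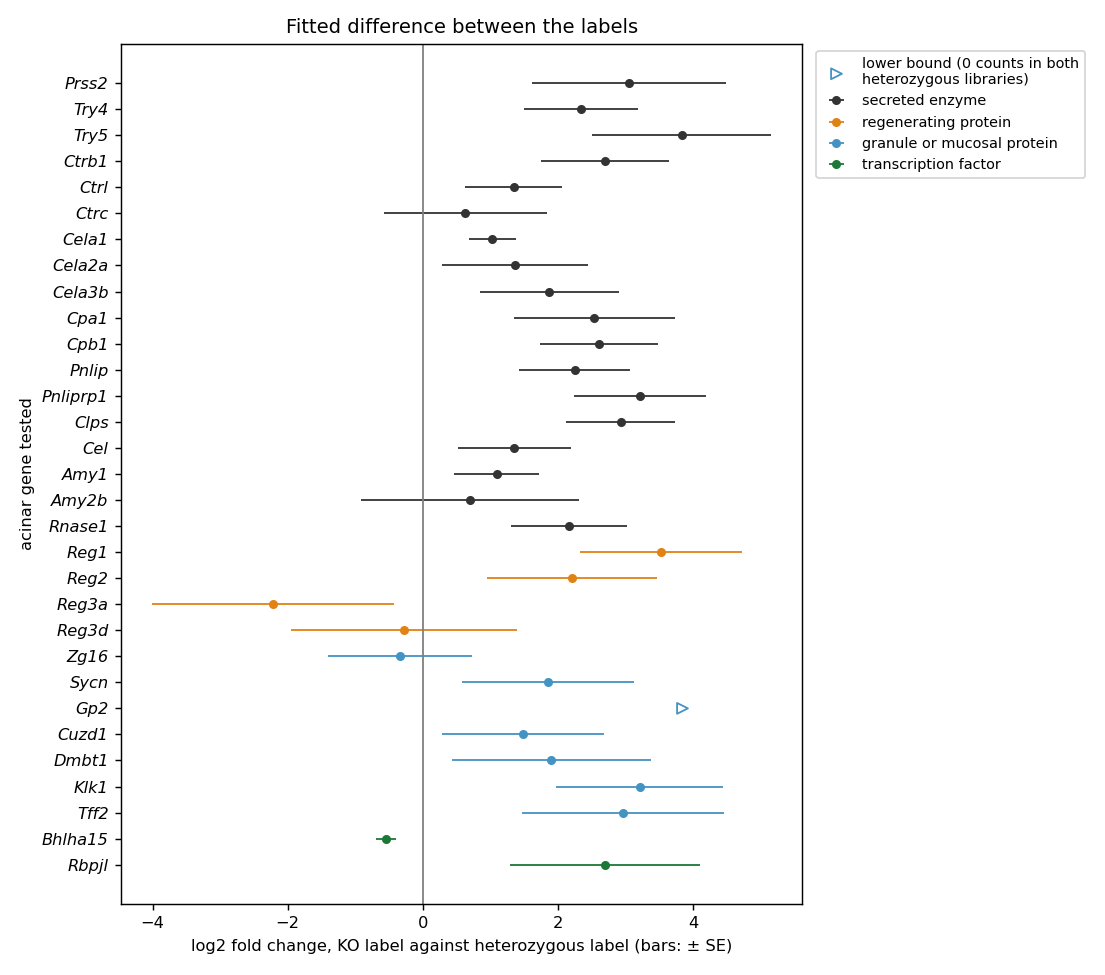
Fitted log2 fold change of the KO label against the heterozygous label for the 31 tested acinar genes, with bars of ± 1 standard error. Gp2 is drawn at a lower bound of 3.84, which allows for counting error only, because both heterozygous libraries are at 0. Of the 31, 27 lie above 0 and none passed the adjusted threshold, and Bhlha15 lies below 0 with the shortest bar.

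Of the enzyme classes, trypsins spanned the widest range, from 94.5 and 12.5 CPM in sum to 10.7 and 0.424 CPM. Trypsin cleaves other zymogens to their active forms, and its genes lie in 1 cluster (chromosome 6, 41302269 to 41525079, GRCm38), where related genes share sequence. Prss2, which encodes anionic trypsinogen (chromosome 6, 41521787 to 41525079, plus strand), had 1784 and 167 counts against 271 and 4, or 54.3 and 5.21 against 7.00 and 0.121 CPM. KO replicate 1 alone was high and the labels overlapped (log2 fold change 3.05, SE 1.44, edgeR adjusted p = 0.346). Try5 had 1205 and 170 counts against 110 and 2 (log2 fold change 3.83, SE 1.33, adjusted p = 0.207) and Try4 had 116 and 62 against 32 and 8 (2.34, SE 0.84, adjusted p = 0.221). Neither overlapped between labels. KO replicate 1 exceeded KO replicate 2 by 10.4 times for Prss2 and 6.91 times for Try5 but by 1.82 times for Try4. Of the 50-base words in the transcripts of each gene, 7.83% for Prss2, 47.6% for Try5 and 65.6% for Try4 also occur in transcripts of other genes (GENCODE M21), so reads of Try4 and Try5 may have been exchanged or lost, which makes their values uncertain.

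Chymotrypsins and elastases, which cut proteins at other residues than trypsin, were split. Ctrb1, which encodes chymotrypsinogen B (chromosome 8, 111686519 to 111691010, minus strand), had 764 and 165 counts against 146 and 19 (log2 fold change 2.70, SE 0.95, edgeR adjusted p = 0.213). Cela2a had 738 and 260 against 439 and 18 and overlapped between labels (1.36, SE 1.08, adjusted p = 0.598); its exons overlap those of Ctrc and Casp9, and these reads cannot be separated. Cela1 (chromosome 15, 100674421 to 100687921, minus strand) departed from the rest. Its level was 12.2 and 21.5 CPM against 9.17 and 7.39 CPM, from 401 and 689 against 355 and 244 counts, so heterozygous replicate 2 held 34.3% of the highest level and KO replicate 2, not 1, was highest. Its labels did not overlap (log2 fold change 1.03, SE 0.35, adjusted p = 0.196), and it passed without KO replicate 1 (1.35, adjusted p = 0.0440). Heterozygous replicate 1 exceeded replicate 2 by 1.24 times for Cela1 (95% exact binomial interval 1.05 to 1.47), by 6.56 times for Ctrb1 (4.05 to 11.2) and by 20.8 times for Cela2a (13.0 to 35.4). Ctrl, Ctrc and Cela3b had 18 to 267 counts in the 3 other libraries and 4 to 29 in heterozygous replicate 2. All of their fitted differences were above 0, and that of Ctrc turned below 0 without KO replicate 1 or without heterozygous replicate 2 (log2 fold changes -0.75 and -0.25).

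The carboxypeptidases trim proteins from their carboxyl end. Cpa1 (chromosome 6, 30639218 to 30645363, plus strand) had 534 and 89 counts against 119 and 6, with overlap (log2 fold change 2.53, SE 1.19, edgeR adjusted p = 0.345). Cpb1 had 479 and 300 against 137 and 12, without overlap (2.60, SE 0.87, adjusted p = 0.191). KO replicate 2 and heterozygous replicate 1 could not be told apart in Cpa1 (ratio 0.904, 95% exact binomial interval 0.679 to 1.20), while in Cpb1 the former was 2.65 times the latter (2.16 to 3.27).

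Among the genes of fat digestion, Pnliprp1, Clps, Pnlip and Cel kept the library order of the summed enzymes. The lipase genes Pnlip, Pnliprp1 and Pnliprp2 lie next to each other (chromosome 19, 58652498 to 58777534). Pnliprp1, which encodes a lipase-related protein, had 997 and 427 counts against 169 and 10 (log2 fold change 3.21, SE 0.98, edgeR adjusted p = 0.160). Clps, which encodes colipase, the cofactor that anchors lipase to bile-coated fat, had 948 and 307 against 163 and 27 (2.92, SE 0.80, adjusted p = 0.126), the smallest adjusted p among the enzymes. Neither overlapped between labels. Pnlip and Cel, which encode pancreatic and bile salt-activated lipase, had 267 to 499 counts under the KO label, 150 and 376 in heterozygous replicate 1 and 16 and 33 in replicate 2. Pnliprp2 was at 86 counts in KO replicate 1 and at 1 to 7 in the others, and Pla2g1b, a phospholipase gene, at 1 to 10 throughout.

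Amylase, which digests starch, was scarcely found. Amy2a5, 1 of several near-identical pancreatic amylase genes, had 0 counts in all libraries, and Amy2b had 51 and 11 against 45 and 0. Of the 50-base words of Amy2b 40.2% and of Amy2a5 53.5% recur in other genes, so reads may be lost here and these low counts may not measure pancreatic amylase RNA. Amy1, the amylase of salivary gland and liver, had 65 and 151 counts against 70 and 44, without overlap (log2 fold change 1.09, SE 0.63, edgeR adjusted p = 0.450). Like Cela1 it was highest in KO replicate 2 and held 28.2% of its highest level in heterozygous replicate 2, which heterozygous replicate 1 exceeded by 1.36 times (95% exact binomial interval 0.918 to 2.03). Exons of Amy1 overlap those of Rnpc3 over 1128 of 3446 bases, and without strand these reads cannot be told apart. Rnase1, which encodes pancreatic ribonuclease, had 347 and 227 against 137 and 13 (2.16, SE 0.86, adjusted p = 0.267), in the usual order.

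The make-up of the enzyme reads differed between libraries beyond counting error. Trypsins made up 31.4% of the enzyme reads in KO replicate 1 (95% Wilson interval 30.5% to 32.4%), 10.1% in KO replicate 2 (9.16% to 11.04%), 13.7% in heterozygous replicate 1 (12.5% to 14.9%) and 2.82% in heterozygous replicate 2 (1.69% to 4.68%). Cela1 ran the other way, with 4.06%, 17.4%, 11.7% and 49.2% in the same order. Carboxypeptidases held 10.3%, 9.81%, 8.47% and 3.63%. The proportions of the enzymes among each other thus differed along with their total. With Cela1 and Amy1 set aside, a choice made after their values were seen, the other 18 enzymes summed to 287, 97.6, 67.1 and 6.30 CPM, and heterozygous replicate 1 exceeded replicate 2 by 10.7 times.

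**Figure D3:**
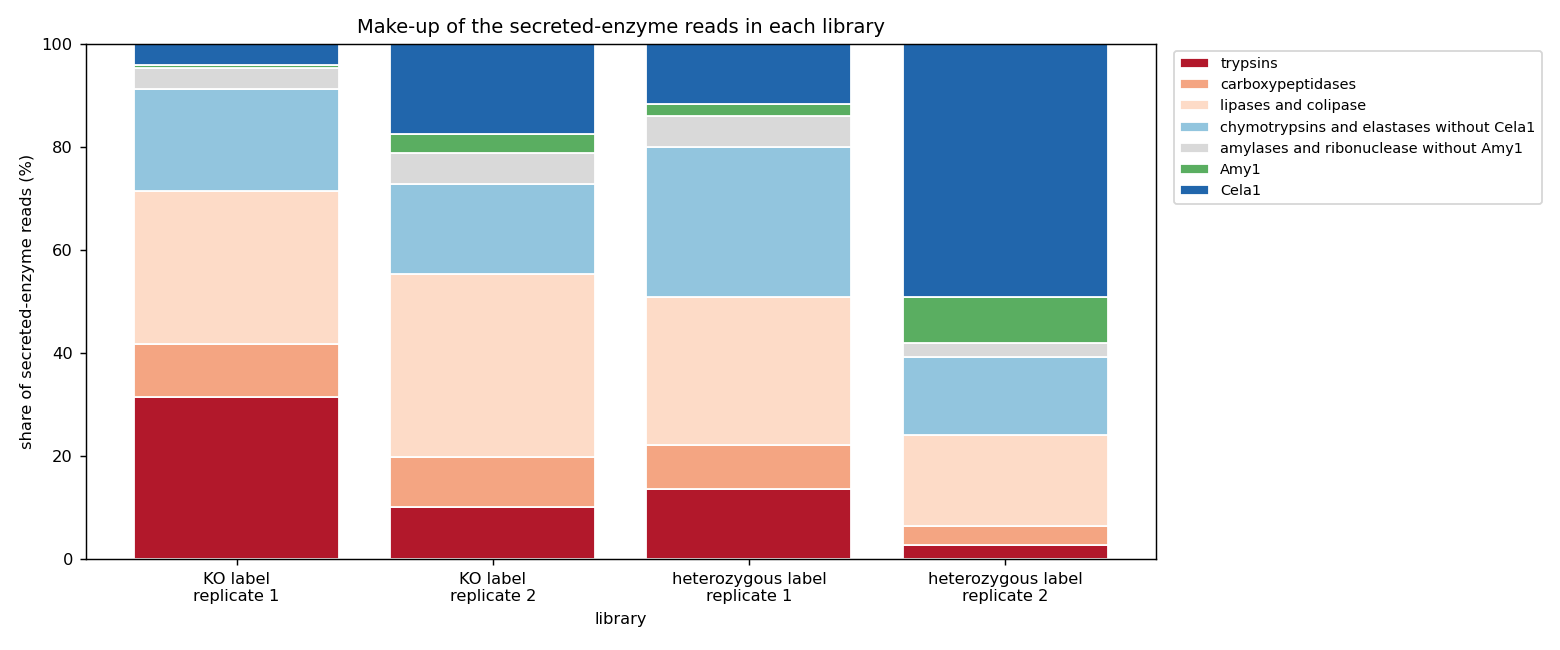
Share of the secreted-enzyme reads (percent, stacked to 100) taken by each enzyme class in each library, with Cela1 and Amy1 drawn apart from their classes. Trypsins take 31.4% in KO replicate 1 and 2.82% in heterozygous replicate 2, where Cela1 takes 49.2%.

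Regenerating proteins are small secreted lectins of acinar cells that rise in pancreatic injury, and their genes lie together (chromosome 6, 78375874 to 78428667). Reg1 had 1813 and 406 counts against 219 and 6, or 55.2 and 12.7 against 5.65 and 0.182 CPM. Its labels did not overlap (log2 fold change 3.52, SE 1.19, edgeR adjusted p = 0.200). Reg2 had 92 and 20 against 26 and 2, with overlap (2.20, SE 1.26, adjusted p = 0.442). Reg3a and Reg3d were highest in heterozygous replicate 1, with 89 and 40 counts, against 12 and 23 in KO replicate 1 and 0 in heterozygous replicate 2. Reg1 and the Reg3 genes thus differed in which library was highest, while heterozygous replicate 2 was lowest for all 4.

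Among proteins of the granule and the mucosal surface, Gp2 had the smallest adjusted p of the whole set. Gp2 encodes the main membrane glycoprotein of zymogen granules (chromosome 7, 119442537 to 119459285, minus strand). It had 31 and 47 counts against 0 and 0 (edgeR adjusted p = 0.0626). Gp2 met the minimum counts of the set and of the test through the KO libraries alone. Its adjusted p and the bound that follows thus come from a gene selected by the label in which it was high. With 3 counts per library as the floor for 0, Gp2 was at least 14.3-fold higher, a bound that allows for counting error only. Libraries of 1 label differed by far more than counting error, so the bound may not hold between labels. Alone among the tested members Gp2 was at 0 in heterozygous replicate 1, a library that held 3024 enzyme reads. Klk1, a tissue kallikrein gene, had 152 and 41 counts against 23 and 1 (log2 fold change 3.21, SE 1.24, adjusted p = 0.254). Dmbt1, which encodes a mucosal scavenger protein, had 627 and 150 against 245 and 0, with overlap (1.90, SE 1.47, adjusted p = 0.586). Sycn, Cuzd1 and Tff2 had 10 to 88 counts under the KO label and 0 to 2 in heterozygous replicate 2, Zg16 was highest in heterozygous replicate 1 with 105 counts, and Serpini2 had 0 to 12.

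The transcription factors did not share 1 pattern. Ptf1a, which defines the acinar lineage (chromosome 2, 19445663 to 19447501, plus strand), had 48 and 4 counts against 9 and 1 and was too low to test; 35.4% of its 50-base words are shared with the antisense transcript Ptf1aos. Rbpjl (chromosome 2, 164403141 to 164415448, plus strand) had 287 and 79 counts against 66 and 0, or 8.74, 2.47, 1.70 and 0 CPM, where 0 allows up to 0.0908 CPM. Its exons overlap those of Matn4 over 149 bases. Its labels did not overlap (log2 fold change 2.70, SE 1.41, edgeR adjusted p = 0.398). Bhlha15 (chromosome 5, 144190286 to 144194441, plus strand) had 5868 and 6768 counts against 10399 and 9908. At 179 and 211 against 269 and 299.9 CPM it was high in every library, and highest where the enzymes were lowest. Neither KO replicate reached either heterozygous replicate, as for 23.8% of all tested genes (log2 fold change -0.54, SE 0.15, edgeR adjusted p = 0.132; DESeq2 adjusted p = 0.0168).

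Set against the enzymes library by library, Rbpjl had the same order of libraries as their sum and Bhlha15 the reverse order. There were 2.91 reads of Rbpjl per 100 enzyme reads in KO replicate 1 (95% exact binomial interval 2.57 to 3.27), 1.99 in KO replicate 2 (1.57 to 2.49) and 2.18 in heterozygous replicate 1 (1.68 to 2.79). In heterozygous replicate 2 the 0 reads of Rbpjl beside 496 enzyme reads have an exact interval that reaches 0.746 per 100, and 3 reads, the floor used for 0, would give 0.605. That limit lies below the intervals of the other libraries, so the share of Rbpjl there was lower beyond counting error. The intervals leave out the variation between libraries, which was far larger than counting error even within a label. Whether the share of Rbpjl differed beyond that variation was not tested. Of the 496 reads, 288 were of Cela1 and Amy1, which departed from the other enzymes. Ptf1a gave 0.486, 0.101, 0.298 and 0.202 per 100, the last from 1 read. For Bhlha15 the same figure was 59.4, 171, 344 and 1998, a rise from the library with the most enzyme RNA to the library with the least. Per kilobase of exon, the scale on which genes can be compared, the summed enzymes stood at 269, 86.0, 56.7 and 8.86 CPM per kb and Bhlha15 alone at 51.1, 60.5, 76.9 and 85.8. Taken singly, the only enzyme above Bhlha15 on this scale was Prss2, in KO replicate 1. The ratio of summed enzymes to the 3 summed factors was 5.01 and 1.41 against 0.734 and 0.103 (means 3.21 ± 2.55 and 0.418 ± 0.446, SD, n = 2 each; exact permutation p = 0.333, 2-sided). Bhlha15 supplied 95.4% to 99.98% of the factor level, so this ratio mostly sets the enzymes against Bhlha15. Whether the Bhlha15 RNA came from acinar cells was not tested. Against Ptf1a and Rbpjl alone the ratio was 108, 168, 126 and 441, where the last rests on 1 read, and the ratio of the group means turned below 1, to 0.486.

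**Figure D4:**
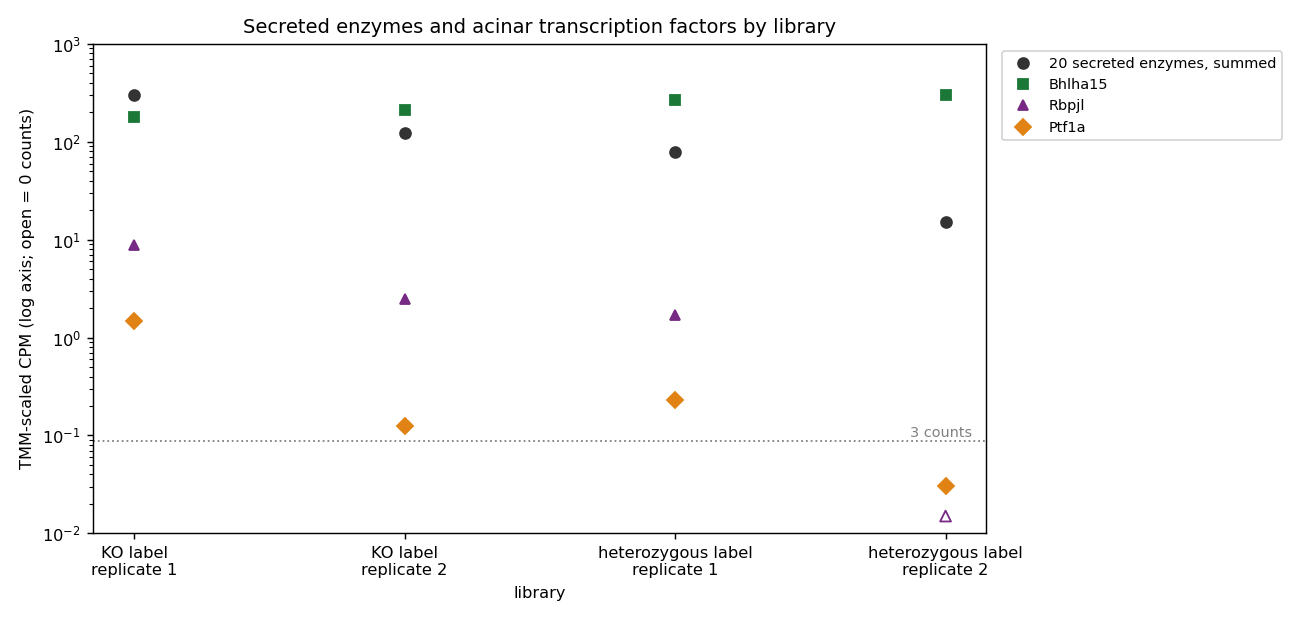
TMM-scaled CPM (log axis) of the 20 summed secreted enzymes and of the transcription factor genes Bhlha15, Rbpjl and Ptf1a in each library, with an open symbol for 0 counts and a dotted line at 3 counts. The summed enzymes go from 301 to 15.01 CPM across the libraries and Rbpjl from 8.74 to 0, while Bhlha15 goes from 179 to 299.9.

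Other genes of the acinar secretory programme were taken from a list of 24, of which 22 were in the table and 19 were tested. None passed in edgeR's test, against 2.54% of all genes. Unadjusted, 5 were under 0.05 (Tmed6, Itpr3, Cldn10, Spink3 and Rab3d), against 16.9% of all genes. DESeq2 called 1, Tmed6 (adjusted p = 0.0296), against 8.05% of all genes. By limma-voom and limma-trend 0 passed, against 2.61% and 3.39%. The median log2 fold change was 0.71, against 0.024 over all genes. Tmed6, which encodes a cargo receptor of the early secretory pathway, had 1060 and 518 counts against 383 and 372 (log2 fold change 1.20, SE 0.35, adjusted p = 0.147). Itpr3, a calcium release channel gene, had 2142 and 1768 against 1707 and 937 (0.73, SE 0.24, adjusted p = 0.183), and Cldn10, a tight junction gene, 16 and 43 against 3 and 0 (4.38, SE 1.46, adjusted p = 0.191). Tmed6 and Itpr3 were highest in KO replicate 1 and Cldn10 in KO replicate 2. None of these 3, picked by smallest p, overlapped between labels, and 25.3% of all genes tested likewise had both KO replicates above. Xbp1 and Rab3d, which are described after their values were seen, were high in every library. Xbp1, a factor of the secretory pathway and of the unfolded protein response, had 16936 and 16450 counts against 21962 and 18872 (-0.15, SE 0.13). Rab3d, which encodes a GTPase of secretory granules, had 12505 and 10189 against 17819 and 14539 (-0.37, SE 0.15, edgeR adjusted p = 0.272). It was lower under the KO label without overlap, as were 23.8% of all genes tested.

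Markers of other cells moved with the acinar genes only in part. The 10 stromal markers summed to 136 and 376 CPM against 60.8 and 20.9 CPM, and were highest in KO replicate 2 whereas the enzymes were highest in KO replicate 1. Of 7 tested, 3 were higher under the KO label (Col1a2, Lum and Pdgfra), against 1.20% of all genes tested. In heterozygous replicate 2, 3 stromal markers were at 0 (Pdgfra, Pdgfrb and Thy1). The 9 immune markers in the table summed to 273 and 946 CPM against 300.4 and 358 CPM and overlapped between labels. The 6 endothelial markers summed to 36.0 and 17.8 CPM against 14.3 and 10.8 CPM. Their sum and that of the Y-linked genes were highest in KO replicate 1 and lowest in heterozygous replicate 2, as the enzymes were. Among single endothelial markers, Plvap and Esam had these extremes, while Pecam1 was lowest in heterozygous replicate 1. Kdr had 0 and 24 counts against 0 and 24, and Tek had 0 and 3 against 2 and 11. Of the 12 duct markers, Krt19, Sox9, Muc1, Car2 and Cftr summed to 24.1 and 10.5 CPM against 5.81 and 5.21 CPM, with Cftr at 0 in 3 libraries. All 12 summed to 1423 and 1388 against 1894 and 1963 CPM. Of 11 tested, 1 was lower under the KO label (Prom1, edgeR adjusted p = 0.0339), against 1.34% of all genes tested. The 6 markers of α-, δ- and PP-cells summed to 4174 and 8748 against 3626 and 3387 CPM, without overlap and with none at 0. Of these 6, 1 was higher under the KO label (Irx2, edgeR adjusted p = 0.0230), against 1.20% of all genes tested. Endothelial Cdh5 had 0 to 3 counts in every library. The part of these cells, and of sex, in the acinar differences was not tested.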

How the data were processed

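Total RNA of 4 samples of flow-sorted mouse β-cells was sequenced after extraction (RNeasy Plus Micro) and low-input amplification (SMART-Seq v4, a kit that keeps no strand), per the labels' protocols. STAR, edgeR and mm10 are named in the submitters' processing notes without versions or roles. The counting tool, its handling of reads with several matches and its annotation were not stated in the protocols, headers or notes used. Raw counts per gene symbol were deposited by the authors, and all main values use them. They also deposited a scaled table, used here as a signal, that equals the counts times 1 constant per library; whole reads were recovered from 100% of its values at a tolerance of 0.01, and a count test on them called 372 genes, as on the counts.

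After filterByExpr (10 counts, total of 15) and TMM scaling, edgeR 4.0.16 in R 4.3.3 fitted all 4 libraries (glmQLFit, glmQLFTest) with group as the only term, 2-sided, with Benjamini-Hochberg adjustment over 14649 genes at 0.05. Summed CPM and ratios were compared by exact permutation over libraries with Python 3.11.15. The edgeR procedure alone was tested on simulated counts. Lengths, positions and shared 50-base words are from GENCODE M21 (GRCm38). Alternatives were other scalings, filters and thresholds, DESeq2 1.42.0, limma 3.58.1 (voom, and trend on log2 of the deposited signal plus 1), a replicate block and leaving out each library. The members, lists and tests were chosen with earlier results of these data known. The text names every factor and, per role, the 2 genes with the highest mean CPM and the 2 with the smallest p, and gives the other members by counts and ranges; of the other acinar genes the rule names the 3 with the smallest p, and all others named from that list were chosen after their values were seen. Adgre1, Cela3a and Spink1 had no row under these symbols. For 1 gene of the list of other acinar genes, values are not reported here.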

Additional observations from a re-analysis of the deposited data

How the results depend on the processing

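The count of 0 acinar genes past the threshold, beside 372 of all genes, became 4 without a low-count filter (Pnliprp1, Clps, Reg1 and Gp2, beside 808 of all genes), 5 in DESeq2 (1179), 1 in limma-voom (383), 1 at an adjusted p under 0.1 (Gp2, 728) and 9 with a replicate block (591). It was 0 to 11 when 1 library was left out (25 to 826 of all genes), and 0 under each other scaling (372 to 422), with a mean of 5 CPM or more (500), in limma-trend (496) and on recovered reads (372). The replicate numbers of the titles are not said to mark a shared animal or day, and the deviations of same-numbered libraries had a correlation of -0.020, so the 9 of the replicate block (Prss2, Try5, Ctrb1, Cpa1, Cpb1, Pnlip, Pnliprp1, Clps and Reg1) rest on a shared number only; the summed enzymes and the enzyme to factor ratio had log2 differences of 2.49 and 3.27 within same-numbered pairs. For the other acinar genes the count of 0 became 1 in DESeq2 and 0 to 4 when 1 library was left out (Tmed6, Spink3 and Nupr1 higher and Gata4 lower without KO replicate 2). The log2 difference of the summed enzymes (2.19) ran from 1.41 to 3.82 and that of the enzyme to factor ratio (2.94) from 1.75 to 4.96 when 1 library was left out, and the latter was -1.04 against Ptf1a and Rbpjl alone, an alternative chosen after seeing the data, in which heterozygous replicate 2 rests on 1 read. Of 448 single-gene values under 15 alternatives, 402 kept direction and side of the threshold, 33 passed it newly and 13 changed sign. The sign changes were Reg3a (0.13), Reg3d (1.34) and Zg16 (0.30) in limma-voom, Reg3d (0.90) and Zg16 (0.34) with the replicate block, and, when 1 library was left out, Ctrc (-0.75 without KO replicate 1, -0.25 without heterozygous replicate 2, range -0.75 to 3.21), Amy2b (-0.78 and -0.30 likewise, range -0.78 to 7.96), Reg3a (6.02 without heterozygous replicate 1, range -3.22 to 6.02), Zg16 (2.10 likewise, range -1.20 to 2.10) and Reg3d (0.42 without KO replicate 2 and 6.82 without heterozygous replicate 1, range -1.73 to 6.82). Fits without heterozygous replicate 1 set genes against 1 library with 0 counts for Reg3a and Reg3d, so those fold changes depend on the prior count; the cause of the other changes was not tested. Below 3 counts, 0.0775 to 0.0937 CPM, a level could not be told from 0.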

Other observations

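Some low-level acinar genes outside the main set, chosen after their values were seen, repeated parts of the picture. Of the 19 tested genes of that list, 7 were lowest in heterozygous replicate 2, against 25.0% of all tested genes. At least 4 times as high in heterozygous replicate 1 as in replicate 2 were 4 of the 19, against 2.14%. Most of that list thus did not share the low level of heterozygous replicate 2. Nr5a2, a nuclear receptor gene that acts with PTF1 in acinar cells, had 33 counts in KO replicate 1 and 0 in the other 3 libraries. Cckar, the receptor through which cholecystokinin triggers enzyme release, had 83 and 3 counts against 24 and 5. Spink3, a trypsin inhibitor gene, had 168 and 32 counts against 17 and 18, so heterozygous replicate 2 was not below heterozygous replicate 1 for it. Gata4 had 0 counts in KO replicate 1 and 46, 74 and 49 in the others, the reverse of Nr5a2. Reg3b and Reg3g, injury-induced regenerating proteins, had 188 and 114 counts in KO replicate 1, 162 and 61 in heterozygous replicate 1 and 0 in heterozygous replicate 2.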
